A study of Mus musculus with 99 samples.

Results

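The transcripts of 10 genes that mark GABA neurons and their interneuron subtypes were followed across 5 brain regions of juvenile mice, and between offspring exposed to fentanyl and to water. The genes were taken by name: Gad1, Gad2, Slc32a1, Pvalb, Sst, Vip, Lhx6, Lamp5, Calb1 and Calb2. All 10 were found among the 55335 Ensembl gene identifiers of the count files, of which 55154 matched GENCODE M21. The mice were wild-type offspring of C57BL/6 dams. Dams of the fentanyl groups were given fentanyl at 10 µg/ml in their drinking water, starting at embryonic day 0 and ending with weaning, and dams of the control groups drank water alone. Bulk tissue punches of females and males covered 3 reward regions, the nucleus accumbens (NAc), prelimbic cortex (PrL) and ventral tegmental area (VTA), and 2 sensory ones, primary somatosensory cortex (S1) and ventrobasal thalamus (VBT). Of the 20 groups by region, sex and treatment, 19 had 5 libraries and S1 from water males had 4, which gave 99 libraries. The labels give "juvenile" as the age and name no litter or animal, so p-values measure only the spread between these samples, and libraries of different regions may come from the same mice.

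GABA is the main inhibitory transmitter of the brain. It is made from glutamate by the 2 glutamate decarboxylases encoded by Gad1 and Gad2, and is loaded into vesicles by the transporter encoded by Slc32a1. In the cortex, GABA neurons are local interneurons, and most fall into types told apart by the calcium-binding protein parvalbumin (Pvalb), the peptides somatostatin (Sst) and vasoactive intestinal peptide (Vip), or the membrane protein LAMP5 (Lamp5). Lhx6 encodes a LIM homeodomain factor of the parvalbumin and somatostatin lineages. In the striatum, by contrast, the principal neurons themselves use GABA, and in the thalamus of rodents most GABA neurons of this area sit in the reticular nucleus next to the relay nuclei. The calcium-binding proteins calbindin (Calb1) and calretinin (Calb2) are shared by interneurons and several other cell types, among them dopamine neurons and olfactory bulb cells.

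On GRCm38, with the GENCODE M21 models, 5 of the genes lie on chromosome 2. These are Gad2 (22622205 to 22693874, + strand), Lhx6 (36081953 to 36105408, - strand), Gad1 (70553072 to 70602014, + strand), Lamp5 (136052239 to 136069917, + strand) and Slc32a1 (158610767 to 158615748, + strand). Calb1 lies on chromosome 4 (15881264 to 15908064, + strand), Calb2 on chromosome 8 (110137502 to 110168210, - strand), Vip on chromosome 10 (5639218 to 5647617, + strand), Pvalb on chromosome 15 (78191114 to 78206400, - strand) and Sst on chromosome 16 (23889573 to 23890958, - strand). All are protein-coding, and counts were taken over exons. Slc32a1 shares exon sequence with the antisense gene Gm14205, which held 489 counts over all libraries, and the antisense gene Gad1os, with 1169 counts, lies within the bounds of Gad1 without exon overlap. The sources used here do not say whether counting used strand, so reads of Slc32a1 and Gm14205 may not be told apart.

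Promoter windows of RefSeq on GRCm38.p6, the 250 bases before each transcript start, were matched for 8 of the 10 genes in 12 windows, and Calb1 and Calb2 had none. The windows of Sst and Vip are shown because these are the peptide genes, Vip with the widest range between regions and Sst with a called difference between treatments. Capitals mark the cAMP response element TGACGTCA, its first 5 letters TGACG, both searched on both strands, and TATAAA on the gene's strand. The Sst window is chr16:23890845-23891094 (- strand) and the Vip window is chr10:5638968-5639217 (+ strand), each written along the gene's strand.
Sst: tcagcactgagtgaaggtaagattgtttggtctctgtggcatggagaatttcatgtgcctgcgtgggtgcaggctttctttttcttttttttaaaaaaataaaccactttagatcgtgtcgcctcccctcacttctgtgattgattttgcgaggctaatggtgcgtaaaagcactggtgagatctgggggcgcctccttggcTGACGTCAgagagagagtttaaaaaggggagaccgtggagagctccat
Vip: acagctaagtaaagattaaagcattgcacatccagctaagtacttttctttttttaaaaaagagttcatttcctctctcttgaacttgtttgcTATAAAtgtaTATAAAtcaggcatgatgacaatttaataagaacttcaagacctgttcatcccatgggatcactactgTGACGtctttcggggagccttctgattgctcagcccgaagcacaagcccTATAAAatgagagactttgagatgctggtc
Positions count back from the RefSeq transcript start. The GENCODE models of Sst and Gad2 begin further upstream, within these windows, so the matches of both genes lie inside those models. The full element began 48 bases before the RefSeq start of Sst and occurred in none of the other 11 windows. Across all 32851 promoters in the table, 1.55% of windows held it. Vip held the 5-letter form at -79, found in 17.8% of windows, and TATAAA at -157, -147 and -30, found in 7.59%. The 5-letter form is part of the full element, and Gad2 also held it once, at -33. The homeodomain core TAATTA, searched on both strands and present in 4.84% of all windows, occurred in none of the 12. A match describes letters and is not a site of binding.

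Kept libraries held from 23032078 to 52069639 counts over genes, with a median of 36024982, and from 24079 to 27347 genes with a count. VTA male water 3 had counts for fewer than 10000 genes and was left out. Its Vip, Lhx6, Lamp5, Calb1 and Calb2 values were 0 CPM, against 319 CPM for Pvalb and 333.4 for Sst. Markers of the labelled tissue were present in every kept library: Th and Slc6a3 in VTA, Prkcd and Slc17a6 in VBT, Slc17a7 and Tbr1 in S1 and PrL, and Drd1 and Penk in NAc. Of the PrL libraries, female water 5 and male water 3 stood apart, with 210.2 and 390.9 CPM summed over 6 olfactory bulb markers, and male water 4 had 40.6, against at most 11.4 in the other 17. Of the VBT libraries, female water 2, male fentanyl 5 and female water 3 stood apart, with 4526, 651.4 and 233.2 CPM summed over 5 choroid plexus markers, against at most 33.4 in the other 17.

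Within water, the levels of all 10 genes differed between regions, and Gad2 was highest in NAc. In bulk punches, fewer cells of a type and less RNA per cell cannot be told apart. Levels are CPM, counts per 1000000 counts over genes, given as mean ± SD over 9 libraries in VTA and S1 and 10 in the others. Gad1 averaged 669.9 ± 271 CPM in VBT, 545 ± 67.8 in NAc, 339.7 ± 100.8 in VTA, 339 ± 222 in PrL and 317 ± 57.7 in S1. The VBT libraries ran from 177 to 1106 CPM around a median of 754, wide enough to overlap every other region. The PrL mean of Gad1 rested on the 2 libraries high in olfactory markers, and over the other 8 it was 243 ± 35.3 CPM, below S1. Gad2, the enzyme form concentrated at nerve terminals, averaged 667 ± 158 CPM in NAc, 433 ± 99.4 in VTA, 296 ± 105 in VBT, 175 ± 56.5 in PrL and 159 ± 15.2 in S1. No NAc library of Gad2, at 421 to 854 CPM, overlapped a cortical one, at 134 to 322 CPM. Slc32a1 averaged 178 ± 45.1 CPM in VTA, 177 ± 43.1 in NAc, 111 ± 41.2 in VBT, 58 ± 20.1 in PrL and 52.5 ± 7.79 in S1.

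By edgeR's quasi-likelihood test on the water libraries, adjusted over 20216 genes, neighbours in these orders often did not differ beyond their spread. For Gad1 the steps from VBT to NAc (adjusted p = 0.0937), VTA to PrL (0.922) and PrL to S1 (0.863) were not called, and the step from NAc to VTA was (0.0126). Without the 2 olfactory PrL libraries the step from VBT to NAc was called (0.42 on the log2 scale, edgeR adjusted p = 0.0345), while VTA to PrL (0.40, 0.0665) and S1 to PrL (0.37, 0.124) were not. For Gad2 the last step alone, PrL to S1, was not called (adjusted p = 0.588 by edgeR). For Slc32a1 neither VTA to NAc (adjusted p = 0.839) nor PrL to S1 (0.599) was called by edgeR. The ratio of Gad1 to Gad2 within a library, each in CPM per kilobase (kb) of exon, was 1.7 ± 0.253 in VBT, 1.53 ± 0.179 in S1 and 1.39 ± 0.367 in PrL, against 0.596 ± 0.0551 in VTA and 0.647 ± 0.096 in NAc. In VTA and NAc the highest ratio, 0.789, lay below the lowest of VBT, S1 and PrL, 1.12. The exon length scales every region alike, so the order of the regions does not depend on it.

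**Figure D1:**
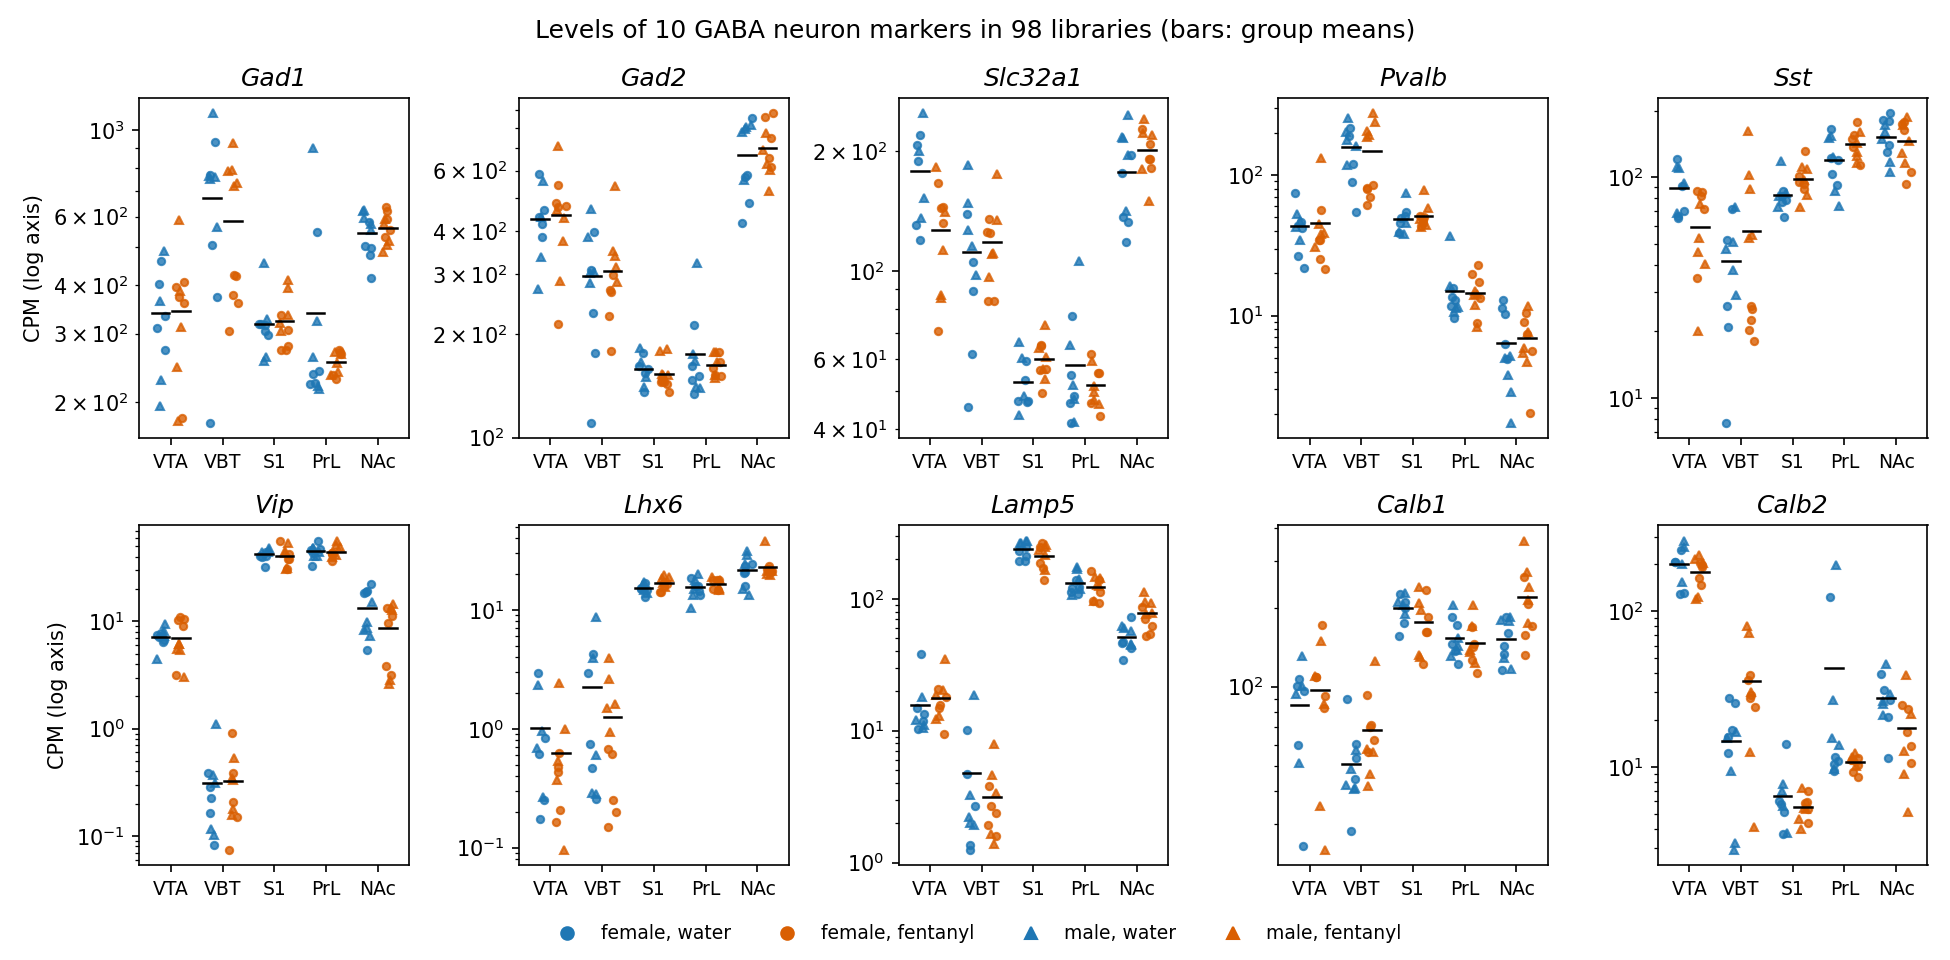
Each panel plots 1 gene, with CPM on a log axis against region; circles are female and triangles male libraries, blue is water and orange fentanyl, and black bars are means over both sexes. Vip spans from 0.0747 CPM in VBT to 56.9 in PrL, Pvalb is highest in VBT, and 2 PrL water libraries lie far above the rest for Calb2.

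As the plot of levels by region shows, Vip, Lamp5, Calb2, Pvalb and Lhx6 had a wider range between regions than the 3 synthesis and storage genes. Sst and Calb1 did not, since their highest means were 3.67 and 3.94 times the lowest, against 4.21 times for Gad2. Pvalb averaged 158 ± 61.7 CPM in VBT, 48.5 ± 11.4 in S1, 43.1 ± 15.5 in VTA, 15 ± 7.96 in PrL and 6.42 ± 3.76 in NAc, and the highest mean was 24.6 times the lowest. Of these steps, S1 to VTA alone was not called (adjusted p = 0.441 by edgeR). S1, at 37.8 to 74.8 CPM, did not overlap PrL, at 9.55 to 36.8. Sst ran in another order, at 153 ± 29.8 CPM in NAc, 119 ± 30.6 in PrL, 88.8 ± 21.9 in VTA, 83.3 ± 14.6 in S1 and 41.6 ± 21.3 in VBT. NAc and PrL (edgeR adjusted p = 0.299) and VTA and S1 (0.975) were not called. The ratio of Pvalb to Sst, each in CPM per kb of exon, was 2.92 ± 0.769 in VBT, 0.416 ± 0.122 in S1, 0.345 ± 0.13 in VTA, 0.0897 ± 0.0398 in PrL and 0.0278 ± 0.0124 in NAc.

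Vip had the widest range, 143 times from lowest to highest mean. It averaged 44.9 ± 6.29 CPM in PrL, 42.4 ± 4.81 in S1, 13.3 ± 6.09 in NAc, 7.22 ± 1.34 in VTA and 0.315 ± 0.299 in VBT, and the 2 cortical regions were not told apart (edgeR adjusted p = 0.723). At VBT depths the lowest library held 3 Vip counts, so its values there carry large counting error. Lhx6 was at 21.8 ± 5.86 CPM in NAc, 15.5 ± 2.82 in PrL, 15.2 ± 1.39 in S1, 2.25 ± 2.78 in VBT and 1.01 ± 0.977 in VTA. The first 3 regions were not told apart from each other (edgeR adjusted p = 0.348 to 0.953), and every library of theirs exceeded every VTA and VBT library. Lamp5 averaged 239.6 ± 33.1 CPM in S1, 131 ± 24.2 in PrL, 51 ± 11.5 in NAc, 15.6 ± 8.87 in VTA and 4.8 ± 5.47 in VBT. All 4 steps of Lamp5 were called, and S1, at 194.4 to 276 CPM, lay wholly above PrL, at 107 to 175.

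Calb1 averaged 199.6 ± 23.4 CPM in S1, 153 ± 25.9 in PrL, 152 ± 28.1 in NAc, 85 ± 32.8 in VTA and 50.7 ± 16.5 in VBT. Its S1 and PrL levels (edgeR adjusted p = 0.0912) and its PrL and NAc levels (0.662) were not called as different. Calb2 averaged 202 ± 55.9 CPM in VTA, 42.9 ± 64.8 in PrL, 27.8 ± 9.64 in NAc, 14.6 ± 8.24 in VBT and 6.53 ± 3.07 in S1. VTA, at 129 to 284 CPM, lay above every NAc, VBT and S1 library. The PrL mean of Calb2 rested on the 2 libraries high in olfactory markers. With all water libraries the log2 fold change of Calb2 in VBT over PrL was -1.45 (SE 0.46, edgeR adjusted p = 0.00525), and without those 2 libraries, an alternative added after seeing the data, it was 0.15 (adjusted p = 0.676). The PrL mean of Calb2 was then 13.5 ± 5.82 CPM (n = 8). Calb2 in VBT over S1, 1.23 (edgeR adjusted p = 0.024), was 1.13 (0.0538) without the 2 VBT water libraries high in choroid plexus markers.

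Over the 10 pairs of regions, 81 of 100 tests of the 10 genes were called. Since most genes differed between regions, these counts stand beside a high background. VTA against VBT called 10 of the 10, with 54.4% of all genes called. Lhx6 there was -1.21 on the log2 scale by edgeR and -0.07 by limma-voom (adjusted p = 0.0264 and 0.91). VTA against S1 called 7 (69.2%), VTA against PrL 9 (68.2%) and VTA against NAc 9 (66.2%). VBT against S1 called 10 (69.8%), VBT against PrL 10 (70.1%) and VBT against NAc 8 (69.8%), or 10 without the 2 olfactory PrL libraries. S1 against NAc called 9 (55.1%), and PrL against NAc 6 (52.1%). The 2 cortical regions differed in 3 of the 10 genes, Pvalb, Lamp5 and Calb2, with 39.5% of all genes called. Pvalb was 1.68 higher in S1 on the log2 scale (SE 0.29, adjusted p = 7.36e-06 by edgeR).

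Per kilobase of exon, which allows levels to be set between genes, with exons of all transcripts counted, Sst had the highest mean of the 10 in 4 regions, at 212 ± 41.4 CPM per kb in NAc, 165 ± 42.4 in PrL, 123 ± 30.4 in VTA and 116 ± 20.2 in S1. In VBT Pvalb led with 152 ± 59.2 CPM per kb, followed by Gad1 with 87.7 ± 35.5. Next after Sst came Calb2 in VTA (116 ± 32), Lamp5 in S1 (81.7 ± 11.3) and PrL (44.7 ± 8.26), and Gad2 in NAc (114 ± 26.8), all in CPM per kb. The exon length matters most for Gad1, whose exons over all transcripts span 7639 bases but whose longest transcript has 3601. By the longest transcript Sst led in NAc and PrL alone, and Gad1 stood at 186 CPM per kb in VBT, above Pvalb at 162. Calb2 stood at 141 CPM per kb in VTA, above Sst at 123, and Lamp5 at 122.5 in S1, above Sst at 115.5. Gad1 came second in NAc, at 151 CPM per kb against 116 for Gad2, and in PrL, at 94.1 against 67.1 for Lamp5, but without the 2 olfactory libraries these were 67.4 and 67.

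Libraries of VBT differed widely in several of the 10 genes. The thalamic reticular nucleus list (Ecel1, Spp1, Six3 and Isl1) summed to between 28.2 and 227 CPM, with no gene at 0 in any of the 20 VBT libraries. The list is not particular to that nucleus, as it summed to 45.1 to 159 CPM in NAc and 39.4 to 156.5 in VTA, and the striatal list ran from 124 to 1017 CPM in VBT. Its score is the mean log2(CPM + 1) of its genes, and each correlation here and in the next 2 paragraphs is between such a score and the log2(CPM + 1) of a gene. Over the 20 libraries Gad1 went with the score, with Pearson's r of 0.98 and Spearman's rho of 0.974. Both permutation p-values were 1e-05, the smallest that 100000 permutations can give, and r was 0.967 without the 2 libraries farthest from the median. Within females r was 0.996 and within males 0.889 (n = 10 each). Pvalb (r = 0.953, rho = 0.932), Sst (0.924, 0.898) and Gad2 (0.908, 0.886) followed the same list closely, each at an adjusted permutation p of 6.67e-05 for r. Slc32a1 (r = 0.777, rho = 0.684) and Lhx6 (0.744, 0.794) did so more loosely, at adjusted permutation p-values of 0.000291 and 0.000571 for r. The list was 97.5 to 227 CPM in males and 28.2 to 177 in females, and within males r was lower, at 0.777 for Pvalb, 0.671 for Sst and 0.771 for Gad2, against 0.951, 0.983 and 0.892 within females (n = 10 each). Without the 3 choroid plexus libraries, left out after seeing the data, r was 0.973 for Gad1, 0.949 for Pvalb, 0.888 for Sst and 0.857 for Gad2 (n = 17). Without the 2 farthest libraries r was 0.944, 0.882, 0.837, 0.629 and 0.835 for Pvalb, Sst, Gad2, Slc32a1 and Lhx6. Vip (r = 0.357) and Calb2 (r = -0.339) showed no relation past the threshold, at adjusted permutation p-values of 0.154 and 0.169, though for Vip r was 0.747 within males and 0.144 within females. Lamp5 had r = 0.485 (adjusted permutation p = 0.043) and rho = 0.423 (0.0895). Calb1 had r = -0.435 (adjusted permutation p = 0.0716) and rho = -0.603 (0.0112), and its r was -0.872 in females and 0.351 in males. The adjustment covers 40 relations, 10 genes with 1 list in VBT, 1 in VTA and 2 in NAc. The share of all genes that follow each list was not computed, so whether these relations are particular to the 10 genes is not known.

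**Figure D2:**
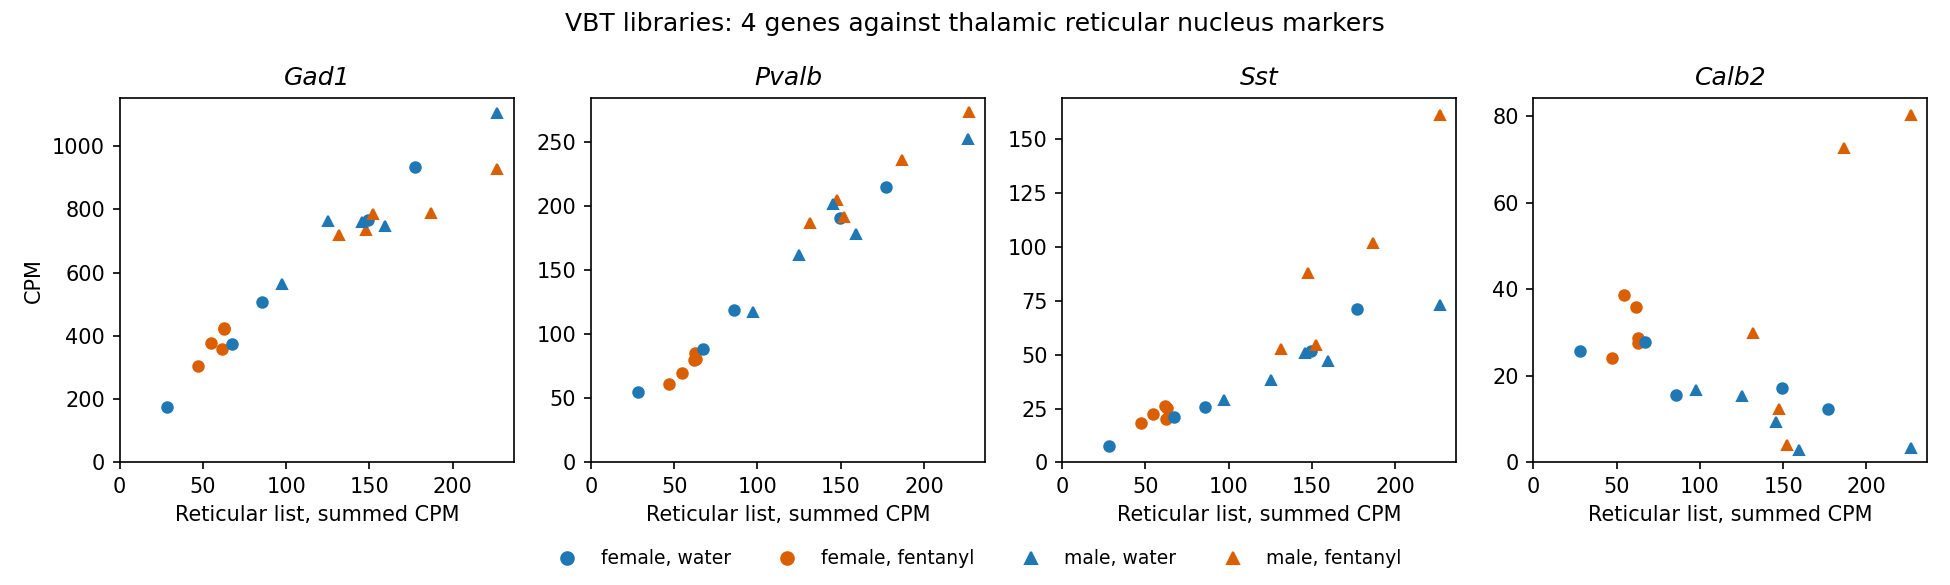
CPM of Gad1, Pvalb, Sst and Calb2 in the 20 VBT libraries against the summed CPM of 4 reticular nucleus markers; circles are female, triangles male, blue water and orange fentanyl. Gad1 and Pvalb run along a single line from 28.2 to 227 CPM of the list, and the 5 female fentanyl libraries sit between 47.1 and 62.8.

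In NAc, 5 of the genes went with striatal markers and 4 with cortical ones, and the share of all genes that do so was not computed. Lhx6 showed no relation past the threshold to either list (r = 0.0838 and -0.087, adjusted permutation p = 0.726 for each). Vip had the strongest of these relations. Over 20 NAc libraries Vip had r = 0.959 and rho = 0.937 with the score of the cortical excitatory list (Slc17a7, Neurod6, Neurod2, Tbr1 and Emx1), each at a permutation p of 1e-05, the smallest possible, and r = 0.952 without the 2 farthest libraries. Within females r was 0.966 and within males 0.954 (n = 10 each), and the list ranged from 54.2 to 1416 CPM. Sst (r = 0.73), Calb2 (0.713) and Pvalb (0.623) were also higher where that list was, at adjusted permutation p-values of 0.00075, 0.00116 and 0.00605. By sex, r was 0.886 in females and 0.441 in males for Sst, 0.792 and 0.754 for Calb2, and 0.874 and 0.233 for Pvalb (n = 10 each). Gad1 (r = 0.738), Gad2 (0.772), Slc32a1 (0.778) and Lamp5 (0.703) went with the striatal list of Drd1, Drd2, Adora2a, Ppp1r1b, Rgs9, Penk and Pde10a, at adjusted permutation p-values of 0.00064, 0.000291, 0.000291 and 0.001, and Calb1 did so more loosely (r = 0.532, adjusted permutation p = 0.024). For Gad1, Gad2 and Slc32a1 r with the striatal list was 0.951, 0.949 and 0.968 in females and 0.247, 0.373 and 0.493 in males (n = 10 each), a difference that was not tested. With the cortical list r was -0.838, -0.875 and -0.804 in females and -0.516, -0.514 and -0.642 in males.

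In VTA, Lamp5 and Sst ran opposite ways against the dopamine neuron list of Th, Slc6a3, Slc18a2, En1, Pitx3 and Foxa2. Over 19 libraries Lamp5 had r = -0.843 and rho = -0.754 (adjusted permutation p = 0.000114 and 0.00102), with r = -0.822 in 10 females and -0.88 in 9 males. Sst had r = 0.674 and rho = 0.63 (adjusted permutation p = 0.00431 and 0.00904), with r = 0.732 in females and 0.654 in males. Without the 2 farthest libraries r was -0.666 for Lamp5 and 0.797 for Sst. Calb2 (r = 0.669, adjusted permutation p = 0.00326), Calb1 (0.558, 0.0219) and Vip (0.542, 0.0243) were past the threshold by r but not by rho (adjusted permutation p = 0.0526, 0.426 and 0.0808). For Calb1 r was 0.0342 without the 2 farthest libraries, so that relation rests on them. Gad1 and Gad2 showed no relation to this list past the threshold (r = -0.191 and -0.134, adjusted permutation p = 0.47 and 0.611). By sex, r was 0.271 in females and -0.545 in males for Gad1, and 0.323 and -0.583 for Gad2. Without the 2 farthest libraries r was 0.297 for Gad1 and 0.422 for Gad2.

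Across the 20 group means, the genes with the most similar profile were found by the root mean square difference of centred log2(CPM + 1) over 11663 genes with at least 10 CPM in a group. Gad2 and Slc32a1 were near each other, at 0.229. The nearest gene to Gad2 was Crybg3, at 0.183, and to Gad1 it was Ypel2, at 0.236. For the subtype markers the nearest genes were Sptssb for Pvalb (0.565), Grik3 for Sst (0.336), Slc30a3 for Vip (0.334), Gm49593 for Lhx6 (0.309), C230057M02Rik for Lamp5 (0.452), Matk for Calb1 (0.235) and Gabrq for Calb2 (0.509). Slc30a3 encodes the vesicular zinc transporter of cortical excitatory neurons.

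Fentanyl exposure left most of the 10 genes without a called difference. Of 100 tests in females and males over the 5 regions, 2 were called at an adjusted p under 0.05, Sst in VTA males and Lamp5 in NAc males, and 15 had an unadjusted p under 0.05, which 7.14% to 34.7% of all genes had in these 10 comparisons. The average of the sexes gave 0 of 50 called (11 with an unadjusted p under 0.05), the male minus female difference in the effect 0 of 50 (5), and males against females in water 0 of 50 (5), all by edgeR. Of all genes, 8.49% to 35.4% had such an unadjusted p in the averages. The share was 2.59% to 15.2% for the difference in the effect and 3.4% to 10.8% for sex in water. DESeq2 and limma-voom made a few further calls, given with the other settings.

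**Figure D3:**
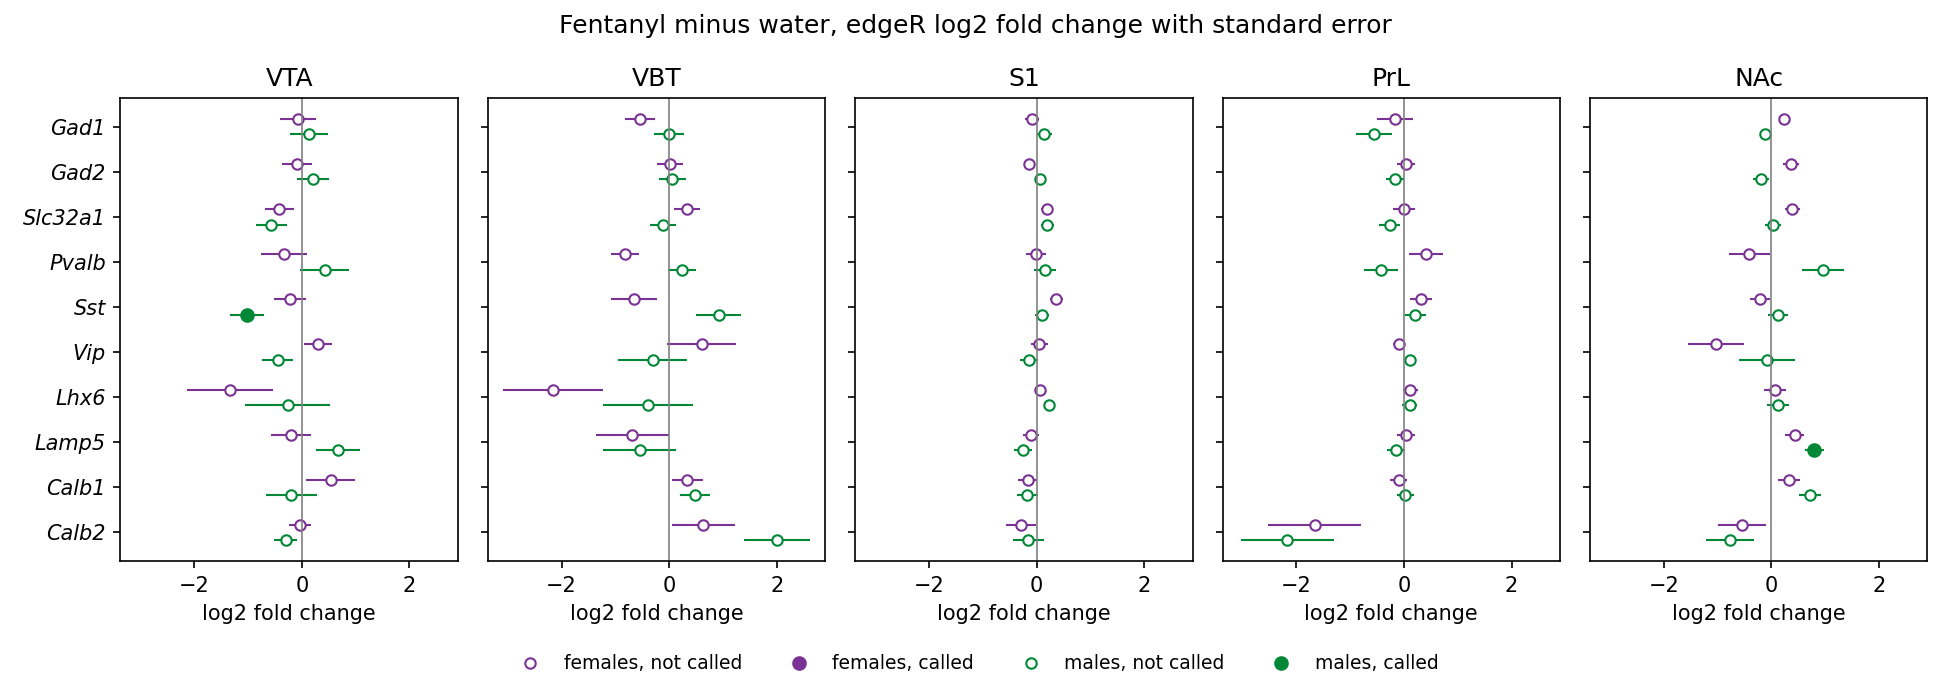
Log2 fold change of fentanyl over water with its standard error for the 10 genes in 5 regions, in females (purple) and males (green), with filled points for called genes. The filled points are Sst in VTA males, at -1.01, and Lamp5 in NAc males, at 0.80.

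In VTA males Sst was lower after fentanyl. Its values were 45.9, 75.3, 52.8, 20.2 and 40.2 CPM in the fentanyl libraries and 110.4, 112, 69 and 93.8 in the water libraries. The highest fentanyl library lay above the lowest water library, so the groups overlapped. The log2 fold change was -1.01 (SE 0.32, n = 5 and 4, edgeR adjusted p = 0.0314). In females Sst was at 71.9, 81.7, 34.8, 85.7 and 86.6 CPM with fentanyl and 65.1, 69.9, 66.9, 121 and 91.5 with water, and was not called. The male minus female difference in the effect was -0.80 and was not called either, nor was the average of the sexes (-0.62, edgeR adjusted p = 0.0521). Slc32a1 averaged 132 ± 36.3 CPM with fentanyl and 173 ± 45.4 with water in VTA females, and 122 ± 40.7 and 184 ± 50.7 in males (SD, n = 5, 5, 5 and 4). Its groups overlapped in both sexes, and its average of -0.49 was not called (edgeR adjusted p = 0.089), with -0.19 under GC offsets and -0.73 (0.0034) with reads outside exons as a covariate. The called gene stands against a background in which 22% of 19822 genes were called in VTA males, 23.1% in the average, and 0% in females and in the difference between the sexes. In water, 0.0504% of genes differed between the sexes in VTA, none of the 10 among them.

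Other measures moved with the same groups in VTA males. The dopamine list summed to 335 to 1240 CPM in the 5 fentanyl libraries and 864 to 1499 in the 4 water libraries. Male fentanyl 4, lowest in Sst, was also lowest in that sum, while by the score male fentanyl 1 was lowest, at 3.94 against 4.78. The trend of counts with GC content, as Spearman's rho across genes, was -0.33 ± 0.18 in fentanyl and 0.58 ± 0.0554 in water (SD over libraries), with no overlap. That with exon length did not overlap either, at -0.0104 to 0.206 in fentanyl and -0.221 to -0.134 in water. Female water libraries of VTA held both signs of the GC trend. Their rho was -0.32, -0.31 and -0.24 in replicates 1 to 3, and 0.65 and 0.52 in replicates 4 and 5, the highest in Sst. The part of the dopamine list in the Sst difference was not tested. With offsets for GC content the log2 fold change of Sst was -0.79 (edgeR adjusted p = 0.149), and with offsets for exon length Sst was not called either. Single libraries mattered too: leaving out male fentanyl 1, 4 or 5 or male water 1, 2 or 5 put Sst above the threshold, at edgeR adjusted p-values from 0.0504 to 0.079, and it was -1.42 (0.0955) with VTA male water 3 kept.

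In NAc males Lamp5 rose. Its values were 92.2, 94, 77.1, 113 and 78.6 CPM with fentanyl and 45, 60.2, 45.1, 56.8 and 61.8 with water. Every fentanyl library lay above every water library. The log2 fold change was 0.80 (SE 0.17, n = 5 each, edgeR adjusted p = 0.0411). In NAc females the values were 85.8, 70.3, 62.5, 54.4 and 52.6 CPM with fentanyl and 46, 46.7, 72.5, 42.1 and 34 with water, which overlapped, and the difference of 0.43 (SE 0.17, adjusted p = 0.544) was not called. The average of the sexes was 0.61 (adjusted p = 0.0937) and the difference between them 0.37, neither called by edgeR. Calb1 had the next lowest p in NAc males, at 272, 214, 239.7, 359.9 and 175 CPM with fentanyl and 117, 184, 129, 179.8 and 178 with water. Its groups overlapped in 1 fentanyl library, and its log2 fold change of 0.72 (SE 0.21) was not called (edgeR adjusted p = 0.0831).

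In NAc males 0.662% of 19480 genes were called, and the share was 0% in females, in the average and in the difference between the sexes, and 0.0513% for sex in water. The striatal list summed to 2385 to 5401 CPM in male fentanyl libraries and 2553 to 3824 in male water libraries, which overlap. The cortical excitatory list, to which Lamp5 had r = -0.659 in NAc (adjusted permutation p = 0.00298), was 88.4 and 116 CPM in male fentanyl 2 and 4, 675 to 756 in the other 3, and 369.8 to 737 in male water libraries. The part of these lists in the Lamp5 difference was not tested, and bulk counts do not tell which cells held Lamp5. The trend of counts with exon length, as Spearman's rho across genes, was -0.199 ± 0.162 in male fentanyl and 0.127 ± 0.18 in male water libraries (SD, n = 5 each), with overlap. With offsets for exon length Lamp5 was 0.78 (edgeR adjusted p = 0.056). The Lamp5 call was close to the threshold, and leaving out any of 11 of the 20 NAc libraries in turn ended it, females included, with adjusted p-values up to 0.116 by edgeR and log2 fold changes between 0.70 and 0.85. These were female fentanyl 2 and 3, female water 1, male fentanyl 1, 2, 3 and 4, and male water 1, 2, 3 and 4.

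**Figure D4:**
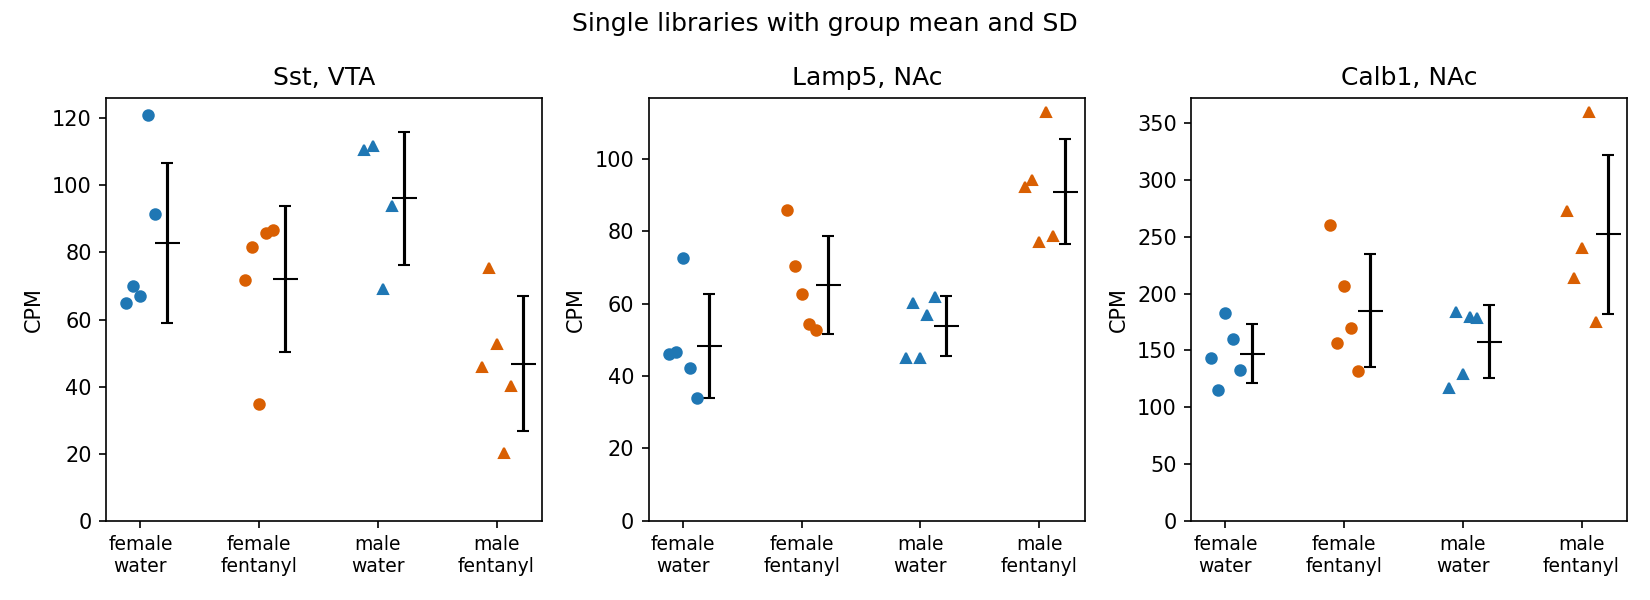
CPM of Sst in VTA and of Lamp5 and Calb1 in NAc for every library by sex and treatment, with the group mean and SD in black. Lamp5 in fentanyl males, at 77.1 to 113 CPM, is above all water males, at 45 to 61.8, while the Sst groups overlap.

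Female NAc libraries gave unadjusted p-values under 0.05 for all 3 genes of GABA synthesis and storage, none of which was called. Of all genes, 9.03% had such a p there. Gad1 was at 621, 636, 554, 532 and 590.2 CPM with fentanyl and 416, 497, 582, 505 and 478 with water. The log2 fold changes were 0.24 for Gad1, 0.36 for Gad2 and 0.39 for Slc32a1, each at an edgeR adjusted p of 0.544. In males they were -0.11, -0.19 and 0.03. The striatal list was 3268 to 4821 CPM in the female fentanyl libraries and 1617 to 4458 in the female water libraries, and the cortical excitatory list was 54.2 to 837 and 256 to 1416 CPM. Their part in these values was not tested.

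In VBT no gene was called in females, males, their average or the difference between them, a share of 0% of 18923 genes in each, and 0.0898% were called between the sexes in water. Pvalb in females was at 79.9, 70.2, 61.4, 85.1 and 80.7 CPM with fentanyl and 190.7, 215, 54.9, 119 and 88.7 with water, and the log2 fold change was -0.82 (SE 0.27, adjusted p = 0.451 by edgeR). The water libraries spread on both sides of the fentanyl ones. The reticular list was 47.1 to 62.8 CPM in those fentanyl libraries and 28.2 to 177 in the water libraries. In males Calb2 was at 30, 12.4, 4.09, 80.4 and 72.7 CPM with fentanyl and 16.8, 9.45, 3.23, 2.94 and 15.3 with water, a log2 fold change of 2.01 (SE 0.61) that was not called (adjusted p = 0.329 by edgeR) and was 0.66 with limma-voom. Without the 3 choroid plexus libraries Pvalb in females was -0.84 and Calb2 in males 1.68, neither called (edgeR adjusted p = 0.536 and 0.493). Sst in the same males was at 52.8, 87.9, 54.6, 161 and 102 CPM with fentanyl and 29.2, 50.9, 73.1, 47.2 and 38.1 with water (0.92, edgeR adjusted p = 0.544). In both genes the groups overlapped.

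In PrL none of the 10 genes was called, and Calb2 had the widest gap between treatments there. Calb2 in females was at 10.3, 8.55, 11.4, 9.26 and 11.1 CPM with fentanyl and 10.4, 11, 9.32, 11.5 and 122 with water. In males it was at 10.1, 11, 12.3, 11.5 and 11.2 CPM with fentanyl and 15.3, 13.8, 199, 27 and 9.62 with water. One water library in each sex stood far above the others, and these were the 2 libraries high in olfactory markers. The average over the sexes was -1.91 (SE 0.61, edgeR adjusted p = 0.118), and it was -0.29 without those 2 and -0.12 without male water 4 as well. Reads outside exons made up 9.49% to 11.2% in female fentanyl and 11.5% to 13.3% in female water libraries, and 10.4% to 12.2% and 12% to 13.7% in males, and with that percent as a covariate the average was 0.54 (edgeR adjusted p = 0.964). The same 2 libraries held 548 and 902 CPM of Gad1, against 216 to 322 in the other 8 water libraries. In PrL 0.021% of 19074 genes were called in females, 0% in males and in the difference between the sexes, 0.697% in the average and 0.0472% for sex in water.

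**Figure D5:**
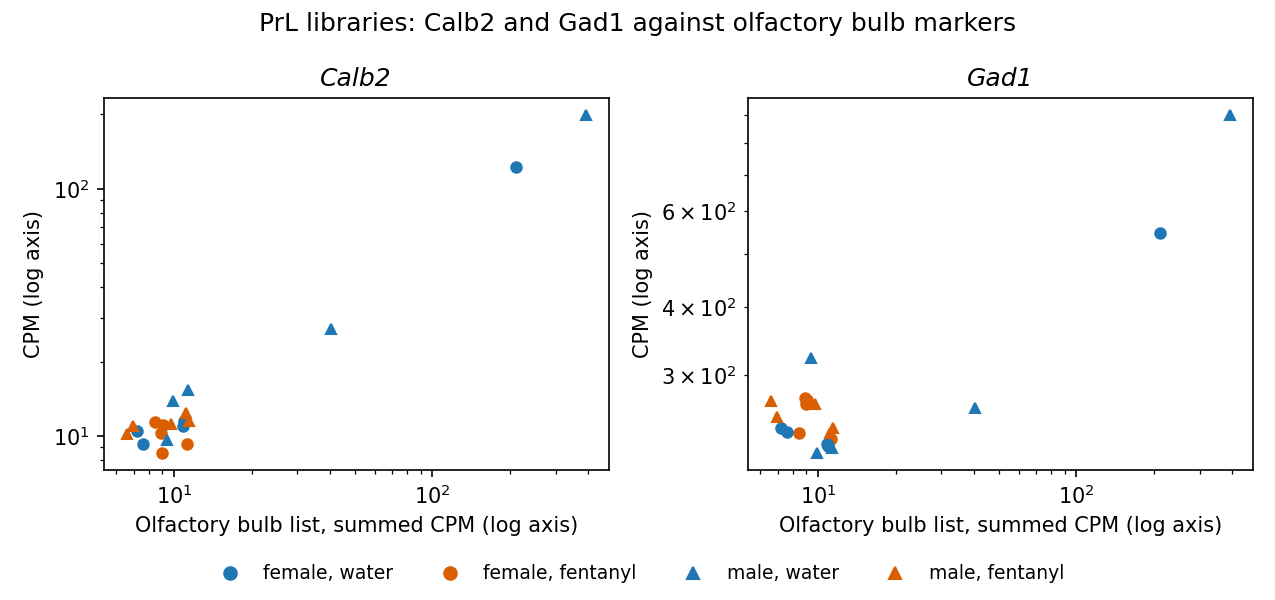
CPM of Calb2 and Gad1 in the 20 PrL libraries against the summed CPM of 6 olfactory bulb markers, both axes on log scales; circles are female, triangles male, blue water and orange fentanyl. The water libraries at 210.2 and 390.9 CPM of the list are the ones with 122 and 199 CPM of Calb2.

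In S1 none of the 10 genes was called, and their log2 fold changes lay between -0.29 and 0.37 in females and males. Sst in S1 females was at 95.1, 88.1, 93.1, 100.7 and 132 CPM with fentanyl and 81.8, 77.5, 78.8, 66.3 and 86.9 with water. These groups did not overlap, and the log2 fold change of 0.37 (SE 0.13) had an adjusted p of 0.203 by edgeR. The trend of counts with exon length did not overlap between these groups either, at -0.325 to 0.000653 with fentanyl and 0.0504 to 0.286 with water, and that with GC content was 0.164 ± 0.185 and -0.227 ± 0.179 (Spearman's rho across genes, SD, n = 5 each). With offsets for exon length the log2 fold change of Sst was 0.24, and with offsets for GC content 0.28 (edgeR adjusted p = 0.415 and 0.337). Lamp5 in S1 males was at 245.5, 164, 233, 216 and 255 CPM with fentanyl and 264, 275, 276 and 264 with water, also without overlap (-0.25, not called). Of 19748 genes in S1, 0.142% were called in females, 0% in males and in the difference between the sexes, 1.03% in the average and 0.0557% for sex in water.

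Other genes of the GABA system, in 3 lists that do not hold the 10, gave few calls as well. Of 10 genes for GABA synthesis, uptake and breakdown (the transporter Slc6a11 and the enzyme Abat among them), 0 were called by edgeR in any treatment comparison, with 0 to 3 at an unadjusted p under 0.05 in each. Such a p was held by 7.14% to 35.4% of all genes in females, males and the averages. Of 26 transcription factors of GABA neurons, the Dlx and Sox6 genes among them, 20 to 26 were tested per region and 0 were called in any treatment comparison. The median log2 fold change of the factors ran from -0.18 in PrL females to 0.14 in S1 females, and was -0.14 in VBT females and -0.15 in VBT males, beside medians of -0.01 to 0.01 over all genes. Six3 and Isl1 are in both this list and the reticular nucleus list. Of 34 further interneuron genes, 33 were tested in VTA, where 1 rose and 1 fell in males. Cnr1, the cannabinoid receptor of cholecystokinin interneurons, rose from 64.9 ± 6.69 to 85.4 ± 7.5 CPM (SD, n = 4 water and 5 fentanyl, log2 fold change 0.44, SE 0.13, edgeR adjusted p = 0.0255). Elfn1, a synaptic organiser of somatostatin interneurons, fell from 42.2 ± 5.05 to 25.5 ± 3.99 CPM (-0.69, SE 0.23, edgeR adjusted p = 0.0432). In the VTA average Elfn1 fell as well (-0.53, edgeR adjusted p = 0.0258), and Id2, a helix-loop-helix regulator, rose (0.15, adjusted p = 0.0413 by edgeR). In NAc males 1 of 34 fell, Nos1, the neuronal nitric oxide synthase, from 98.9 ± 3.69 to 71.9 ± 9.51 CPM (SD, n = 5 each, log2 fold change -0.43, SE 0.1, adjusted p = 0.0474 by edgeR). The VTA background of 22% and the NAc background of 0.662% apply to these counts. Over the other settings, single-library fits aside, calls over all genes ran from 42 to 6520 in VTA males and 2 to 1512 in NAc males. Whether Cnr1, Elfn1, Id2 and Nos1 stay called under those settings was not examined. Cnr1 and Elfn1 were compared between the same VTA male groups that differed in GC and exon length trend. The median log2 fold change of this list ran from -0.28 in VBT males and -0.17 in NAc females to 0.06 in S1 males, beside medians of -0.01 to 0.01 over all genes.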

How the data were processed

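RNA sequencing of bulk punches gave 1 count file per library. Per the labels, Trizol and a column kit were used for the RNA, of which 10 ng went into each SMART-Seq v4 library, and the submitters' processing notes name HTSeq and GRCm38. The aligner, the annotation release and the strand setting are not given in the sources used here. The authors deposited raw counts of reads over exons per Ensembl gene, without normalization, with 5 lines for unassigned reads, which were left out of totals. Reads outside exons made up 9.48% to 17% of the reads in a file, kept libraries only. Symbols, positions and exon lengths came from GENCODE M21 (GRCm38), and promoter sequences from RefSeq on GRCm38.p6. No 2 libraries of the same group were duplicates by a chi-square comparison of their counts.

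CPM is the count per 1000000 counts over genes. Within each region, 4 groups of sex and treatment were fitted in edgeR 4.0.16 (R 4.3.3) and tested by quasi-likelihood F, with TMM factors, filterByExpr and robust dispersions. Water libraries were fitted together, with region and sex as terms, for the 10 pairs of regions. Benjamini-Hochberg adjustment ran over all genes tested, and called means an adjusted p under 0.05. All 10 genes passed the filter in every region. VTA male water 3 was left out, as the rule for the genes asks. Reads had no molecular identifiers and so do not count molecules, and depth speaks for counting error alone. Correlations over libraries used 100000 permutations, two-sided. Python 3.11.15, numpy 2.4.6, scipy 1.17.1, pandas 2.3.3 and matplotlib 3.10.9 were used.

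The 10 genes and the lists were chosen with earlier results of these data known. Of the further GABA lists, the called gene with the smallest p that rose and that fell is named per region and sex, with the called genes of the averages added after seeing them. For likeness the nearest of the 3 genes is named. A few genes of the lists are not reported here and were left out of every sum and count over a list, for a reason unrelated to their values.

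Alternatives were edgeR with size factors from DESeq2 1.42.0, DESeq2's own Wald test, voom of limma 3.58.1 with weights per sample, no filter on low counts, a mean of at least 50 counts, the replicate number as a block, offsets for exon length or for GC content, a covariate for reads outside exons (as a percent), VTA male water 3 kept, fentanyl libraries included in the region fit, PrL without its 2 olfactory libraries, and each library left out in turn. Leaving out those 2 libraries in the region fit, male water 4 as well in PrL, and the VBT libraries high in choroid plexus markers was chosen after seeing the data. The fit was tested on simulated counts: of 100 genes changed 2-fold it recovered 93 (PrL) to 98 (S1), and of 100 changed 1.5-fold 74 (VTA, NAc) to 85 (VBT), with 5 to 11 false calls. The changed genes had a mean of at least 5 CPM. The simulated libraries held no GC or length trend, no difference in tissue content and no library standing apart. A gene not called in the real data may therefore still differ by as much.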

Additional observations from a re-analysis of the deposited data

Results flagged for a closer look

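In 26 of 200 groups of 4 or 5 libraries, the highest or lowest library of a gene stood apart from the others (Dixon's test at 95%). About 10 such groups arise by chance. VTA female fentanyl 3 accounted for 5 of them. Its CPM was 181.4 for Gad1 (others 359.5 to 407.8), 214.5 for Gad2 (470 to 545), 34.76 for Sst (71.89 to 86.56) and 3.139 for Vip (9.138 to 11.02), and 171.9 for Calb1 (82.92 to 108.7). The dopamine list was 440.1 CPM in that library, against at least 1025 in the other 4. In VTA male fentanyl 4, lowest in that list with 334.8 CPM, Pvalb was 132.8 CPM (others 30.6 to 44.66) and Vip 3.013 (5.387 to 6.22). In VTA female water 1, with 478.1 CPM of the list, Lamp5 was 38.32 CPM (10.38 to 14.86), and in female water 2 Lhx6 was 2.949 (0.1745 to 0.83).

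In PrL the libraries high in olfactory markers stood apart. Female water 5 had 547.6 CPM of Gad1 (others 222 to 239.8) and 122.3 of Calb2 (9.321 to 11.51). Male water 3 had 901.9 CPM of Gad1 (215.8 to 322.3), 321.7 of Gad2 (139.3 to 175.7) and 198.9 of Calb2 (9.617 to 26.96). Pvalb was 36.82 CPM in PrL male water 5 (10.62 to 16.36), and Vip was 36.79 in PrL female fentanyl 2 (42.48 to 43.28).

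In VBT male water 3, which had 226.7 CPM of the reticular list, Lamp5 was 18.5 CPM (others 1.93 to 3.273) and Vip 1.105 (0.1029 to 0.3721). In VBT male fentanyl 4, with 226.8 CPM of that list, Gad2 was 540 CPM (283.2 to 350.9) and Calb1 125.5 (41.77 to 57.82). In S1, female fentanyl 5 had 135.7 CPM of Gad2 (143.6 to 146.3) and 131.7 of Sst (88.1 to 100.7), and female water 1 had 13.92 of Calb2 (3.715 to 6.018). In NAc, Gad2 was 561.7 CPM in male water 2 (779.3 to 814.9), Vip was 5.373 in female water 3 (18.34 to 22.51) and Lhx6 was 38.42 in male fentanyl 5 (19.57 to 21.3).

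VTA male water 3, used only in the alternative that keeps it, held 319 CPM of Pvalb and 333.4 of Sst, above the ranges of 21.82 to 74.9 and 65.05 to 121 in the other VTA water libraries.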

How the results depend on the processing

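The count of the 10 genes called moved with the processing in 6 treatment or sex comparisons outside the single-library fits. In VTA males 1 was called, against 2 with limma-voom or with reads outside exons as a covariate, and 0 with no filter, the replicate block, GC offsets, length offsets or VTA male water 3 kept. In NAc males 1 was called, against 2 with DESeq2, limma-voom or reads outside exons, and 0 with no filter, the replicate block or length offsets. The averages called 0, against 1 in VTA with DESeq2 or a mean of 50 counts and 2 with reads outside exons, 1 in PrL with DESeq2, and in NAc 2 with DESeq2, 1 with limma-voom and 2 with reads outside exons. Sex in NAc water gave 1 with limma-voom, against 0. Leaving out 1 library each gave 0 to 1 in VTA males, 0 to 1 in the VTA average, 0 to 2 in NAc males, 0 to 1 in the NAc average and 0 to 1 for the difference between the sexes in NAc. Under the replicate block Sst in VTA males was -0.93 (edgeR adjusted p = 0.0815) and Lamp5 in NAc males 0.78 (0.0795). Whether same-numbered libraries pair cannot be told from their correlations. In no comparison of treatments or regions did every pair correlate above 0.1. Between regions S1 with NAc had the most pairs best with their own number, 6 of 9, with 6 above 0.1 (0.008 to 0.43). S1 with PrL had 6 of 9 above 0.1 and 5 best with their own number, and PrL with NAc 7 of 10 and 4. Between treatments 4 of 5 pairs were above 0.1 in VTA, VBT and S1 females. Their correlations were 0.051 to 0.57, -0.069 to 0.30 and -0.23 to 0.24, and 3, 3 and 0 correlated best with their own number. In VTA males 1 of 4 pairs was above 0.1 (-0.36 to 0.30). Between regions the count moved by at most 2 of the 10. Calls lost there were Lhx6 in VTA over VBT (replicate block, limma-voom), Gad2 in VTA over VBT (no filter), Sst in VTA over PrL (replicate block), Calb1 in S1 over NAc (no filter, fentanyl libraries included), Calb2 in VBT over S1 (choroid plexus libraries left out) and Calb2 in VBT over PrL (limma-voom, replicate block, and the 2 sign changes given next).

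The sign changed in 4 values: Calb2 with reads outside exons as a covariate, to 0.14 in PrL males and 0.54 in the PrL average, and Calb2 in VBT over PrL, to 0.13 with fentanyl libraries included and 0.15 without the olfactory libraries. The cause of the first was not tested. Counts over all genes moved more, from 42 to 6520 in VTA males, 60 to 5705 in the VTA average, 2 to 1512 in NAc males, 0 to 394 in the NAc average, 1 to 602 in the S1 average and 0 to 760 in the PrL average. Of the other comparisons, VTA ran to 155 in females (main 0), 603 for the difference between the sexes (0) and 2792 for sex in water (10), S1 females to 373 (28), and NAc to 1302 (0) and 602 (10) for the same 2 contrasts of sex. The counts in VBT and PrL females and males and in NAc females, 0 to 4, reached at most 52, and the VBT difference between the sexes 109. With single libraries left out, NAc males ran from 0 to 813, the NAc difference between the sexes from 0 to 449, sex in NAc water from 8 to 174, S1 females from 0 to 220, the S1 average from 30 to 502 and the PrL average from 38 to 289. Vip in VBT and Lhx6 in VTA fell to 3 counts in single libraries, and Lhx6 in VBT to 5, which limits their precision.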

Other observations

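Across regions in water, 6 of the 10 genes followed one of 2 patterns, which were drawn from these same values. Vip, Lhx6, Lamp5 and Calb1 were lower in both VTA and VBT than in each of S1, PrL and NAc, while Gad2 and Slc32a1 were higher in VTA and VBT than in S1 and PrL, each of these called by edgeR. The share of all genes with either pattern was not computed, and each of these pairs of regions called 66.2% to 70.1% of all genes. In NAc, where Gad2 was highest, Pvalb was lowest at 6.42 ± 3.76 CPM and Sst highest at 153 ± 29.8 CPM (SD, n = 10). In water, Gad2 to Slc32a1 was the steadiest of 4 ratios of CPM per kb of exon taken within libraries, with means from 1.19 in VTA to 1.8 in NAc, and Pvalb to Sst the widest, from 0.0278 in NAc to 2.92 in VBT.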
